A study of Mus musculus with 8 samples.

Results

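Enteroendocrine cells are the hormone-secreting cells of the gut epithelium. Their transcripts were followed here in RNA from intestines that had been treated to detach the epithelium, through 9 genes taken by name from the deposited expression table of 46635 loci. 7 of them encode peptide hormones or peptide signals (Cck, Gcg, Sct, Gip, Nts, Pyy and Ghrl), Tph1 encodes the enzyme that commits tryptophan to serotonin, and Neurod1 encodes a transcription factor of the lineage. All 9 were found. The study sequenced RNA from small intestinal mesenchyme of wild-type mice, with 4 libraries from fetuses at E17.5 (the age field of the labels reads E17) and 4 from pups at postnatal day 14 (P14). Intestines of both ages had been treated with EDTA, which loosens the epithelial sheet, and RNA was taken from what stayed behind. The labels name no transgene and no drug. The design text counts 4 mice of each age and the labels tie no library to a mouse, so the p-values measure the spread between these libraries, which may be technical.

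Enteroendocrine cells are scattered singly through the crypts and villi, sense the lumen and nearby cells, and release stored peptides or serotonin towards vessels and nerves. They arise from epithelial progenitors that switch on Neurog3 and then Neurod1, both basic helix-loop-helix factors that bind the DNA element CANNTG, called an E-box. Which hormone a cell makes depends on its position along the gut: gastric inhibitory polypeptide (Gip), cholecystokinin (Cck), secretin (Sct) and ghrelin (Ghrl) are associated with the stomach and proximal intestine, whereas peptide YY (Pyy), the glucagon-like peptides from Gcg and neurotensin (Nts) are richer in the ileum and colon.

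The 250 bases before the RefSeq start site (assembly GRCm38.p6, the build of the sequence table, not that of the expression values) are shown for Nts, Pyy and Sct, whose levels ranked the P14 libraries in the order of the epithelial marker Epcam, and for Gip, whose levels did not. They lie at chr10:102490419-102490668, chr11:102107833-102108082, chr7:141279134-141279383 and chr11:96024295-96024544, the first 3 on the minus strand and Gip on the plus strand. Each is written 5′ to 3′ with every E-box (CANNTG, which reads as the same pattern on both strands) in capitals.
Nts: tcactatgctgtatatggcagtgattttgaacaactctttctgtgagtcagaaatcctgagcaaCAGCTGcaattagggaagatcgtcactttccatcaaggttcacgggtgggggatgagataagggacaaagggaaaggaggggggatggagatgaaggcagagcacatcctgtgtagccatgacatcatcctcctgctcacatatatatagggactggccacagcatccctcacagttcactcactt
Pyy: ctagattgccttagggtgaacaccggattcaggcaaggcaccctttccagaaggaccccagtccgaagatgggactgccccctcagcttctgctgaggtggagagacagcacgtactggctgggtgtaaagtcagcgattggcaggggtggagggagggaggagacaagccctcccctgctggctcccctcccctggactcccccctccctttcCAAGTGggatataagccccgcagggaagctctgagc
Sct: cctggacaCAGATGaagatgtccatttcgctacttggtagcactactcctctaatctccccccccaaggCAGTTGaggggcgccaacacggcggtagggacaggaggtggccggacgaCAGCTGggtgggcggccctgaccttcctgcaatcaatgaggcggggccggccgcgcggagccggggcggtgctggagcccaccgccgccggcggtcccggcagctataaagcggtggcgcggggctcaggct
Gip: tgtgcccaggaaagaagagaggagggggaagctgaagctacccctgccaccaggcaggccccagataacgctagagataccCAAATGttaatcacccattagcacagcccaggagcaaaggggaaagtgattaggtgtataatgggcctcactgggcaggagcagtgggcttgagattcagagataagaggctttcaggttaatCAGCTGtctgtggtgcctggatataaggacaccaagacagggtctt
An E-box lay in the first listed window of 8 of the 9 genes, all but Tph1, and in 66.2% of all 32851 RefSeq windows of this length. The 9 are counted by 1 window each, whereas that share counts every start site of 27025 genes. Start sites 3 and 4 of Ghrl, for example, had no E-box. In the first windows the form CAGCTG was present in 3 of the 9, namely Sct, Gip and Nts, and it was present in 13.0% of all windows. Nts had 1 E-box, 186 bases before the start site, and Pyy had 1, 36 bases before it. These matches describe the letters only. E-boxes were present both in genes that followed the order of Epcam and in genes that did not.

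The libraries held between 16660998 and 19496632 reads assigned to genes, and the 9 genes together drew only 70 to 113 of those reads in an E17.5 library. Values are read counts scaled by gene length and library size (FPKM), a level that is comparable between genes of different length. The P14 libraries differed widely in epithelial transcripts. Epcam, which encodes an adhesion molecule of all gut epithelial cells, measured 0.683, 1.73, 0.844 and 1.32 FPKM across the fetal replicates 1 to 4, and 1228, 8.46, 118 and 33.5 across those of P14. The P14 libraries therefore rank as replicates 1, 3, 4 and 2, and all 20 genes of a pan-epithelial list, Epcam included, followed that order. Their summed level lay within 45.4 to 68.0 FPKM before birth and within 156 to 6438 at P14. Mesenchymal markers were abundant in all 8 libraries (12 genes, summed 4741 to 5402 FPKM at E17.5 and 2416 to 8354 at P14, lowest in P14 replicate 1), although Tagln, usually abundant in smooth muscle, was at 0.222 to 1.19 FPKM. The authors' scaling took P14 replicate 1 as 0.780 times its assigned reads and the others as 1.02 to 1.06 times, which raises every FPKM in that library alike. More epithelium at P14 and a change of age cannot be told apart in this design. In bulk RNA, fewer endocrine cells and less hormone RNA per cell cannot be told apart either.

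Transcripts of the 7 hormones were low before birth, from no read for Gip to 46 reads for Nts in a library, and were highest, Gip apart, in the P14 library with most Epcam. Summed over the 9 genes, the level was 3.12 to 5.06 FPKM at E17.5. At P14 it was 303, 31.3, 12.9 and 6.77 for replicates 1, 3, 4 and 2. That sequence is the order of Epcam. Nts, Pyy and Sct made up most of the sum in replicate 1.

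**Figure D1:**
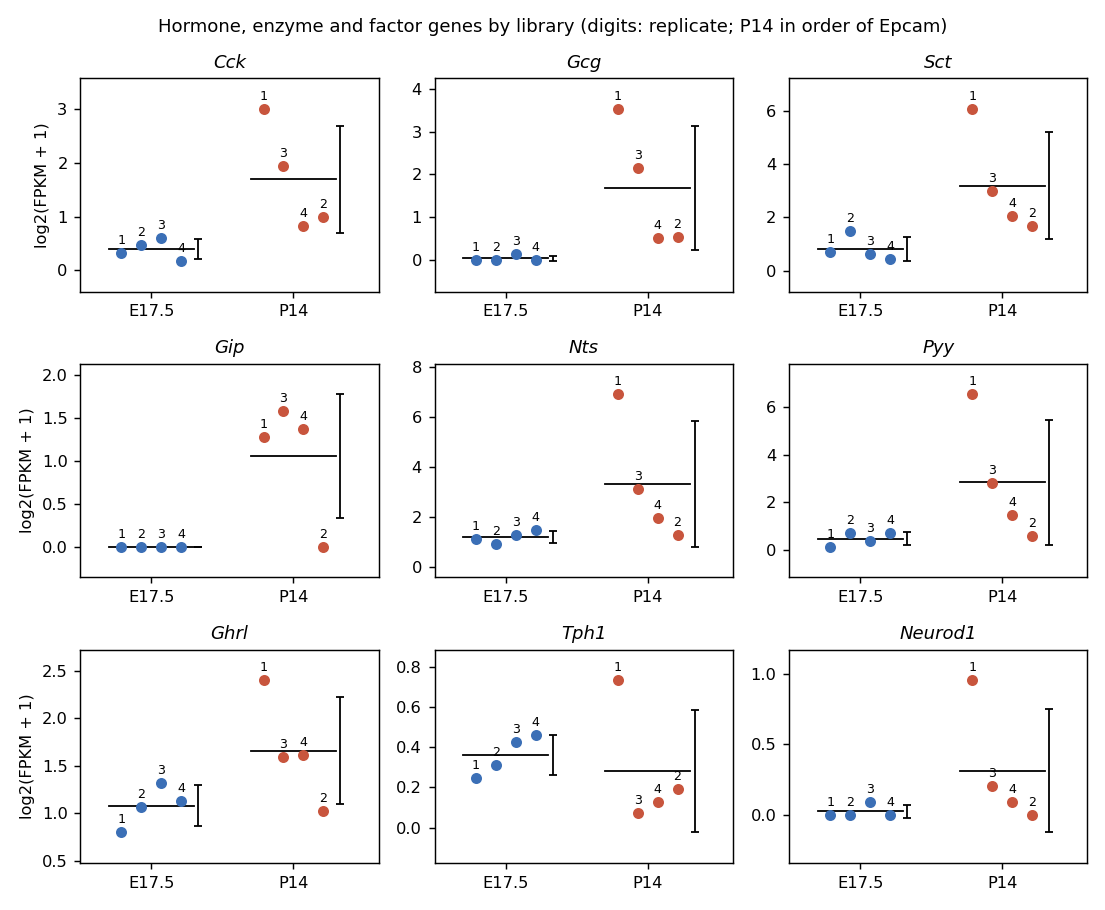
Level of each of the 9 genes as log2(FPKM + 1) in 4 E17.5 libraries (blue) and 4 P14 libraries (red, placed from highest to lowest Epcam), with digits giving the replicate, horizontal lines the mean and bars the SD of the log2 values. P14 replicate 1 was the highest library for 8 of the 9 genes, and Gip was higher in replicates 3 and 4.

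Nts encodes neurotensin, a peptide that acts on gut motility and fat uptake. The gene lies on the minus strand of chromosome 10 from 102317617 to 102326294 (GRCm39, as are all gene positions from here on). Fetal replicates 1 to 4 held 1.2, 0.912, 1.42 and 1.83 FPKM. In P14 replicates 1 to 4 it was 119, 1.43, 7.70 and 2.98 FPKM. The ages overlapped, because P14 replicate 2, the library with least Epcam, lay inside the fetal range. Nts was detected in every fetal library, with between 20 and 46 reads.

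Pyy encodes peptide YY, which slows gut transit and reduces food intake, and lies on the minus strand of chromosome 11 from 101997502 to 101998658. The fetal libraries, in replicate order, had 0.0929, 0.616, 0.282 and 0.626 FPKM, from 1 to 7 reads each. P14 replicates 1 to 4 held 92.4, 0.489, 6.09 and 1.77 FPKM. As with Nts, only P14 replicate 2 fell within the fetal range.

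Gcg, on the minus strand of chromosome 2 from 62304874 to 62313997, encodes the precursor of glucagon and of the gut peptides GLP-1 and GLP-2. It was listed at 0 in 3 of the 4 fetal libraries and at 0.0967 FPKM, 2 reads, in replicate 3. Its P14 levels in replicates 1 to 4 were 10.6, 0.452, 3.47 and 0.431 FPKM. All P14 libraries lay above all fetal ones. Replicates 2 and 4 had 9 reads each although their Epcam differed 3.96-fold (95% exact counting interval 3.50 to 4.49). Gcg is also made in pancreatic islets, and an islet list of 8 genes, Gcg included, summed to 0.0917 to 0.415 FPKM at E17.5 and to 27.8, 0.989, 6.63 and 2.41 in P14 replicates 1 to 4. Most of that sum was Gcg itself and Slc2a2, a glucose transporter also made by enterocytes, at 16.4, 0.128, 2.66 and 1.26 FPKM. The insulin genes Ins1 and Ins2 did not exceed 0.179 FPKM in any library and G6pc2 was at 0 in all. The part of islet cells in the Gcg values was not tested.

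Sct encodes secretin, the peptide that drives bicarbonate secretion, on the minus strand of chromosome 7 from 140858242 to 140859082. Its fetal levels in replicates 1 to 4 were 0.638, 1.81, 0.553 and 0.351 FPKM. P14 replicates 1 to 4 were at 66.3, 2.21, 7.0 and 3.11 FPKM. The lowest P14 value was above the highest fetal value, 2.21 against 1.81, a gap of 23 against 18 reads.

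Cck, on the minus strand of chromosome 9 from 121318890 to 121324760, encodes cholecystokinin, which contracts the gallbladder and stimulates pancreatic enzyme release. E17.5 replicates 1 to 4 held 0.260, 0.383, 0.526 and 0.125 FPKM. P14 replicates 1 to 4 held 7.05, 1.0, 2.84 and 0.782 FPKM. The ages were apart for Cck too. Here P14 replicate 2 was above replicate 4, by 22 against 18 reads, the reverse of Epcam, with an FPKM ratio of replicate 4 to replicate 2 of 0.780 (95% exact counting interval 0.394 to 1.52).

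Gip, an incretin gene on the plus strand of chromosome 11 from 95915358 to 95921657, had no read in any fetal library. At P14 it was at 1.42, 0, 1.98 and 1.59 FPKM in replicates 1 to 4, from 15, 0, 28 and 23 reads. Against a floor of 3 reads over the 4 fetal libraries together (0.0529 FPKM), the P14 mean of 1.25 ± 0.865 FPKM (SD, n = 4) was at least 23.6-fold higher. That bound covers fetal counting error only and takes the P14 mean as exact, so it is no lower bound on the difference between the ages. The 0 in P14 replicate 2 allows up to 0.218 FPKM in that library. Gip was the one hormone gene not highest in P14 replicate 1.

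Ghrl encodes ghrelin, a hormone best known from the stomach, on the minus strand of chromosome 6 from 113693080 to 113696872. Fetal levels were 0.742, 1.09, 1.5 and 1.19 FPKM, replicates 1 to 4 in turn. The P14 values for replicates 1 to 4 were 4.29, 1.04, 2.03 and 2.07 FPKM. P14 replicate 2 overlapped the fetal range, and the spread across P14 was small beside that of Epcam. 11 stomach markers summed to 0.315 to 0.598 FPKM at E17.5 and 1.41 to 1.92 at P14, none of them high enough to be tested.

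Tph1, the tryptophan hydroxylase of serotonin-making enterochromaffin cells, lies on the minus strand of chromosome 7 from 46294065 to 46321961 and was the gene with a different pattern. Fetal replicates 1 to 4 were at 0.185, 0.239, 0.344 and 0.377 FPKM. P14 replicates 1 to 4 were at 0.663, 0.141, 0.0527 and 0.0930 FPKM. P14 replicate 1 was above all fetal libraries and the other 3 were below all of them. Mast cells of the gut wall also use Tph1. Mast cell protease genes were lower in all 4 P14 libraries. Mcpt4 fell by 1.82 on the log2(FPKM + 1) scale (SE 0.157, limma adjusted p = 0.000616), Cpa3 fell by 1.78 and Mcpt2 fell by 1.53. Of 14 mast cell genes 6 were tested, 4 fell and 1, Kit, rose, beside 15.0% and 9.72% of all tested genes, while the summed level was 32.5 to 47.8 FPKM at E17.5 and 21.7 to 58.7 at P14. Kit is also a marker of the pacemaker cells of gut muscle. The part of mast cells in the Tph1 values was not tested.

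Neurod1, on the minus strand of chromosome 2 from 79282981 to 79286980, was barely detected. It was listed at 0 in fetal replicates 1, 2 and 4 and at 0.0633 FPKM, 3 reads, in replicate 3. P14 replicates 1 to 4 were at 0.942, 0, 0.150 and 0.0628 FPKM, from 33, 0, 7 and 3 reads. Its order followed Epcam, on few reads outside replicate 1.

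The comparison of the ages asks which of these transcripts differed between the last fetal days and the second postnatal week. It was made with limma, a linear model that shares information on variance across genes, on log2(FPKM + 1), with Benjamini-Hochberg adjustment over all genes tested. Only Sct, Nts and Ghrl reached 1 FPKM in at least 4 libraries and entered the fit of 14044 genes, and the other 6 did not. A gene can meet this filter through 1 age alone, here and in the gene lists below. Sct reached 1 FPKM in every P14 library but, before birth, only in replicate 2. None of the 3 genes in the fit passed an adjusted p of 0.05. Sct, 1 of them, had an unadjusted limma p under 0.05, as did 5498 of the 14044 genes. Over all genes 9.72% rose at P14 and 15.0% fell. Sct averaged 0.838 ± 0.660 FPKM at E17.5 and 19.7 ± 31.2 at P14 (SD, n = 4 each), a log2 difference of 2.38 (SE 0.888, adjusted p = 0.0860 in limma). Nts averaged 1.34 ± 0.387 and 32.9 ± 57.8 FPKM, a log2 difference of 2.12 (SE 1.09, adjusted p = 0.188 in limma). Ghrl averaged 1.13 ± 0.313 and 2.36 ± 1.37 FPKM, a log2 difference of 0.58 (SE 0.274, adjusted p = 0.155 in limma). For Sct and Nts the P14 SD exceeded the P14 mean.

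When the fit was repeated over the 31574 genes above 0 in any library, all 9 genes could be tested and 0 passed, while 3.19% of all genes rose and 4.98% fell. Cck, Gcg, Gip and Sct had unadjusted p-values under 0.05, with limma and with limma-voom on the recovered reads alike. So did 7555 of the 31574 genes in limma and 7464 of 23824 in limma-voom. The limma-voom fit called 0 of the 9 as well (4.3% of all genes rose in it and 8.17% fell). In limma the log2 differences of Cck, Gcg, Gip and Sct were 1.30, 1.65, 1.06 and 2.38, with adjusted p-values of 0.130, 0.167, 0.0901 and 0.158. Tph1 had the only negative difference, -0.08 (adjusted p = 0.747 in limma).

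P14 replicate 1 weighed on several of these comparisons. Without P14 replicate 1, Sct averaged 4.10 ± 2.55 FPKM at P14 (SD, n = 3) and rose by 1.42 on the log2 scale (SE 0.363, limma adjusted p = 0.0147), where 22.6% of all tested genes rose. Nts and Ghrl then had log2 differences of 0.92 and 0.33, with limma adjusted p-values of 0.0983 and 0.161. Over the larger set of genes Sct alone passed without that library (limma adjusted p = 0.0286), against a background of 11.6%. On recovered reads without it, limma-voom called 3 genes up, against 18.1% of all genes, and Tph1 down, against 16.7%. Those were Cck at 2.12 (adjusted p = 0.0168 in limma-voom), Gcg at 4.65 (adjusted p = 0.0147) and Sct at 2.35 (adjusted p = 0.00706), and Tph1 was at -1.57 (adjusted p = 0.0278). Leaving out P14 replicate 2 instead, the library with no Gip read, Gip passed over the larger set at a log2 difference of 1.41 (limma adjusted p = 0.00259, where 3.36% of all genes rose). All fetal values of Gip were 0 and this removed its only 0 at P14, so that pass gives no support for a difference.

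Where the ages did not overlap gives a count free of the model. Cck, Gcg and Sct, 3 of the 9 genes, were higher in every P14 library than in every fetal one. The same held for 10.6% of the 31574 genes above 0.

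The genes ranked the P14 libraries in different orders. Nts, Pyy, Sct and Neurod1, 4 of the 9, fell from replicate 1 through 3 and 4 to 2 as Epcam did, against 13.1% of all genes with 4 different values. The last step, from replicate 4 to replicate 2, was within counting error for Sct, with a ratio of 1.41 (95% exact interval 0.806 to 2.50), but not for Nts at 2.08 (1.36 to 3.24) or Pyy at 3.62 (1.31 to 12.4). The Epcam ratio there was 3.96, above the intervals of both Sct and Nts. Cck and Gcg matched Epcam in their first positions but had replicate 2 slightly above replicate 4. Ghrl had replicates 3 and 4 nearly level, Gip peaked in replicate 3, and Tph1 was lowest in replicate 3.

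**Figure D2:**
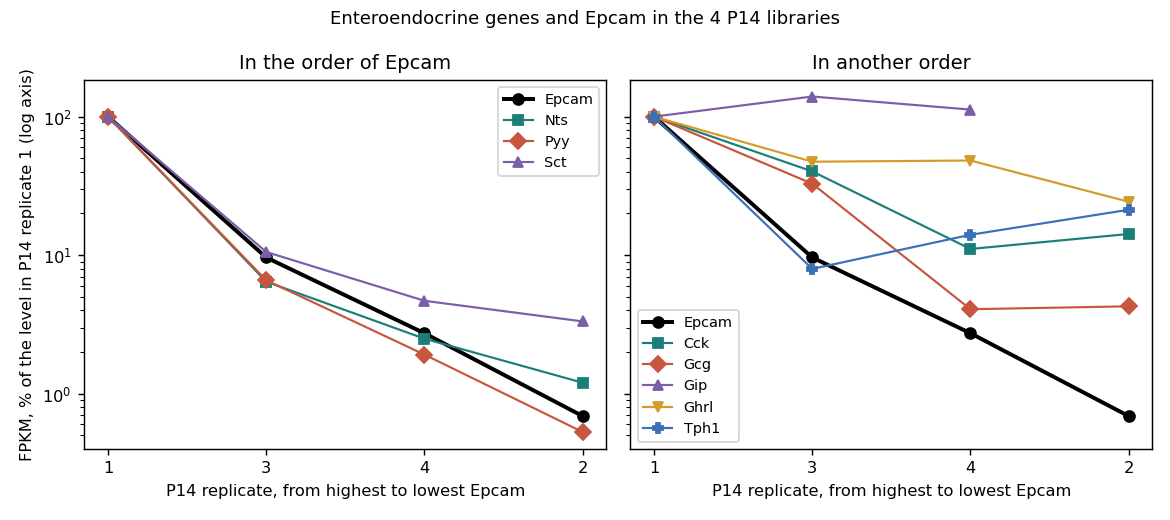
FPKM of Epcam (black) and of 8 genes in the 4 P14 libraries as a percent of the level in P14 replicate 1, on a log axis, from highest to lowest Epcam. Nts, Pyy and Sct descend in the order of Epcam in the left panel, Sct by less at its last step (ratio 1.41), the genes of the right panel take other orders, and Gip has no point in replicate 2, where it was 0. Neurod1, also 0 there, is not drawn.

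The size of the drop also differed between genes and between pairs of libraries. From P14 replicate 3 to replicate 1 Epcam was 10.4-fold higher, with a 95% exact interval of 10.1 to 10.7 that covers counting error only, as do all intervals here. It was 36.6-fold higher in replicate 1 than in replicate 4 (34.7 to 38.7) and 145-fold higher than in replicate 2 (130 to 163). Pyy was 15.2-fold higher in replicate 1 than in replicate 3 (11.7 to 19.9), above Epcam, and its ratios to replicate 4, 52.2 (33.2 to 87.2), and to replicate 2, 189 (80.6 to 584), included those of Epcam.

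Nts stood on both sides of Epcam. Its ratio to replicate 3 was 15.5 (13.3 to 18.2), above Epcam, that to replicate 4 was 40.1 (31.7 to 51.4), which included it, and that to replicate 2 was 83.3 (59.1 to 121), below it. Sct had a ratio of 9.48 (7.43 to 12.2) to replicate 3, which included that of Epcam. Its ratios to replicate 4, 21.3 (15.1 to 31.2), and to replicate 2, 30.1 (19.8 to 47.9), were below. Tph1 did likewise, at 12.6 (5.02 to 40.5), 7.13 (3.45 to 16.5) and 4.70 (2.50 to 9.47) to replicates 3, 4 and 2. Neurod1, on few reads, had ratios of 6.30 (2.74 to 16.9) to replicate 3 and 15.0 (4.71 to 76.5) to replicate 4, both including that of Epcam.

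Cck, Ghrl and Gip had smaller ratios than Epcam in every pair with replicate 1 that gave a value. Cck was 2.48-fold higher in replicate 1 than in replicate 3 (1.82 to 3.42), 9.02-fold higher than in replicate 4 (5.47 to 15.7) and 7.03-fold higher than in replicate 2 (4.44 to 11.6). Ghrl was 2.12-fold (1.24 to 3.69), 2.07-fold (1.22 to 3.58) and 4.12-fold higher (2.11 to 8.65). Gip had ratios of 0.716 (0.355 to 1.39) to replicate 3 and 0.890 (0.432 to 1.78) to replicate 4, intervals that include equal levels. Gcg was 3.05-fold higher in replicate 1 than in replicate 3 (2.29 to 4.09) and 23.4-fold higher than in replicate 2 (12.0 to 52.1), both below Epcam, while its ratio to replicate 4, 24.6 (12.6 to 54.7), included that of Epcam. These are ratios of single libraries, not of conditions, and no test across replicates goes with them.

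**Figure D3:**
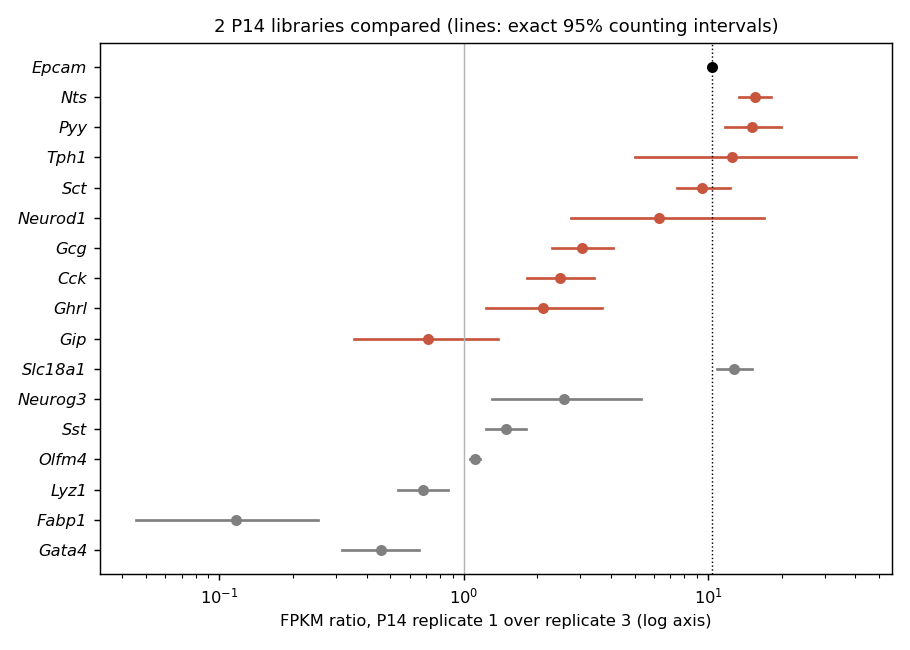
Ratio of FPKM in P14 replicate 1 to P14 replicate 3 on a log axis, with exact 95% counting intervals as lines, for Epcam (black, dotted line), the 9 genes (red) and comparison genes (grey). In this pair Nts and Pyy lie to the right of Epcam at 15.5 and 15.2, and Gcg, Cck, Ghrl and Gip lie between 0.716 and 3.05.

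Genes whose level is known to depend on position along the gut differed between the P14 libraries as well; they were looked up after the hormone values had been seen. Fabp6, the ileal bile acid binding protein, was at 68.9 FPKM in P14 replicate 1 and at 1.61, 0.314 and 0.410 in replicates 2 to 4. Its ratio of replicate 1 to replicate 2 was 42.7 (25.7 to 76.9), below that of Epcam at 145. The Fabp6 ratios to replicates 3 and 4 were 220 (74.7 to 1068) and 168 (65.3 to 620), above those of Epcam at 10.4 and 36.6. Slc10a2, the ileal bile acid transporter, was at 0.994 FPKM in replicate 1 and at 0 in the other P14 libraries. Fabp1, a fatty acid binding protein of proximal enterocytes, went the other way, with 0.975 FPKM in replicate 1 and 8.78, 8.34 and 25.4 in replicates 2 to 4. Gata4, a factor of the proximal small intestine, had ratios of replicate 1 to replicates 2, 3 and 4 of 6.21 (2.99 to 14.5), 0.460 (0.317 to 0.655) and 0.946 (0.626 to 1.42), so it was not lowest in replicate 1. Of crypt genes, the stem cell marker Olfm4 had a ratio of replicate 1 to replicate 3 of 1.12 (1.07 to 1.17). That of the Paneth cell lysozyme Lyz1 was 0.683 (0.539 to 0.862) and that of Neurog3 was 2.58 (1.30 to 5.32). Of 6 epithelial stem cell genes 5 followed the order of Epcam, as did 2 of 6 Paneth cell genes, beside 13.1% of all genes with 4 different values. The part of position or of crypt and villus content in the hormone values was not tested.

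Expressed per unit of Epcam, 5 of the 9 genes were lower in every P14 library than in every fetal one, a share near the 59.7% of all genes above 0 for which this held. Nts was 52.7% to 175% of Epcam at E17.5 and 6.51% to 16.9% at P14. Sct was 26.7% to 105% and 5.40% to 26.1%, Ghrl was 63.1% to 178% and 0.349% to 12.3%, and Tph1 was 13.8% to 40.7% and 0.0446% to 1.67%. For these 4 and for Pyy the ages did not overlap, whereas for Cck they did, at 9.52% to 62.3% against 0.574% to 11.9%. Pyy had the most even ratio to Epcam among the P14 libraries, 5.15% to 7.52%, a 1.46-fold range while Epcam itself ranged 145-fold. It rested on 5 Pyy reads in replicate 2 and 19 in replicate 4. Gcg, Gip and Neurod1, at 0 in most or all fetal libraries, had P14 ranges of 0.862% to 5.35%, 0% to 4.75% and 0% to 0.187%. These percents are descriptions without a test, and the fetal ones of the other 6 genes divide 1 to 46 reads by 27 to 62 reads of Epcam. Against the geometric mean of the pan-epithelial list instead, Ghrl and Tph1 stayed apart between the ages, whereas Sct, Nts and Pyy overlapped. Sct was then 31.5% to 183% at E17.5 and 41.9% to 94.3% at P14, and Nts was 92.2% to 164% and 46.1% to 117%. Pyy was 11.1% to 62.2% and 20.9% to 90.4%, at P14 a wider range in proportion than those of Sct and Nts.

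**Figure D4:**
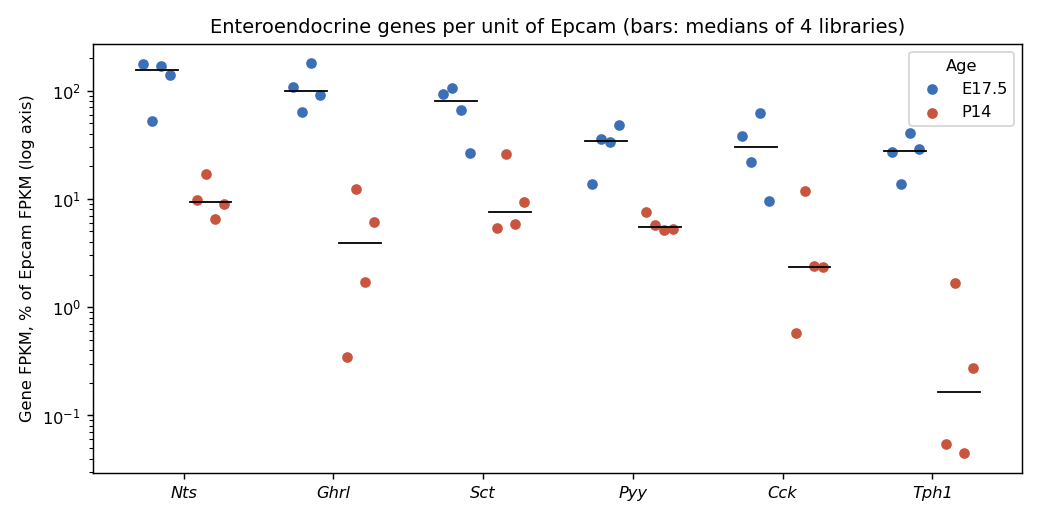
FPKM of 6 genes as a percent of Epcam FPKM in the same library (log axis) for 4 E17.5 libraries (blue) and 4 P14 libraries (red), with black bars at the medians. The ages are apart for all but Cck, and the P14 points of Pyy lie closest together, between 5.15% and 7.52%.

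With log2 Epcam as a covariate in limma, the sign of the age term turned for 7 of the 9 genes. Nts was then lower at P14 by a log2 difference of -2.16 (limma adjusted p = 0.0161, where 17% of tested genes fell). Over the larger set Nts (adjusted p = 0.0465) and Pyy, at -2.21 (adjusted p = 0.0157), were lower, against 4.94% of all genes. Epcam did not overlap between the ages, so that fit extrapolates.

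The transcription factors of the lineage, Neurod1 among them, behaved in several ways. Of a list of 23, 6 could be tested, 0 rose and 3 fell, beside 9.72% and 15.0% of all tested genes, and the median log2 difference of the tested ones was -0.52 beside 0.00219 for all tested genes. Prox1 fell by 0.94 on the log2(FPKM + 1) scale (SE 0.120, limma adjusted p = 0.00206), from 4.31 ± 0.381 to 1.78 ± 0.310 FPKM (SD, n = 4 each). Prox1 is also the master factor of lymphatic endothelium. Rfx3 fell by 0.48 (limma adjusted p = 0.0228) and Insm1 fell by 0.56 (limma adjusted p = 0.0497), and these calls were lost when any of 5 and 6 single libraries were left out. Neurog3, which starts the lineage, was listed at 0 in all fetal libraries and at 1.25, 0, 0.485 and 0.204 FPKM in the P14 ones, replicates 1 to 4. Neurog3 and Neurod1 were among the 7 of the 23 factors that followed the order of Epcam, beside 13.1% of all genes with 4 different values.

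A list of other gut peptides, not all of them particular to endocrine cells, gave 4 increases. Of 15, 9 were tested, 4 rose and 0 fell, beside 9.72% and 15.0% of all tested genes, with a median log2 difference of 0.62. Genes that enter the filter through the age where they are high favour such calls, so the count is no separate support. Sst, which encodes the inhibitory peptide somatostatin, was at 0, 1.07, 0.163 and 0.259 FPKM in the fetal libraries and at 17.2, 6.57, 11.6 and 7.18 in the P14 ones. It thus entered the filter through the P14 libraries. It rose by 3.05 (SE 0.333, limma adjusted p = 0.00121) and kept its call when any single library was left out. At P14 Sst ranked the libraries in the order of Epcam, with the step from replicate 4 to replicate 2 within counting error, at 1.09 (0.845 to 1.41). Its ratio between P14 replicates 1 and 3 was 1.49 (1.23 to 1.80), far smaller than that of Epcam. Enteric neurons make somatostatin too, and their part in the Sst values was not tested. Guca2a and Guca2b, which encode the guanylin peptides that regulate salt and water secretion and are also made by other epithelial cells, rose by 6.83 (limma adjusted p = 0.00816) and 5.25 (limma adjusted p = 0.0158). Guca2b lost its call without E17.5 replicate 3 (limma adjusted p = 0.0504), and both lost it in limma-voom (adjusted p = 0.109 and 0.10).

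Genes for granules and prohormone processing included 10 that rose, in another order of libraries. Of 25, 24 were tested, 10 rose and 0 fell, beside 9.72% and 15.0% of all tested genes, with a median log2 difference of 0.95. Chgb, a granule protein, rose by 1.97 (SE 0.167, limma adjusted p = 0.000616) from 4.45 ± 1.29 to 19.9 ± 1.70 FPKM (SD, n = 4 each). Scg2 and Rab3b, a granin and a GTPase of secretory vesicles, rose by 1.80 (limma adjusted p = 0.00568) and 1.78 (limma adjusted p = 0.0139). None of the 25 followed the order of Epcam. Their summed level was lowest in P14 replicate 1, at 347 FPKM, and was 1046, 820 and 933 in replicates 2 to 4, against 407 to 438 at E17.5. The summed level of 14 enteric neuron genes, which share Snap25 with the granule list, moved with it, at 199, 703, 535 and 570 FPKM in P14 replicates 1 to 4 and 364 to 427 at E17.5. That order at P14 was not particular to neurons. The 12 mesenchymal genes had it too, at 2416, 8354, 6749 and 7828 FPKM in P14 replicates 1 to 4. Neurons store peptides with the same granule proteins, and their part in the granule values was not tested. The hormone genes went the opposite way to these sums, with their highest sum in P14 replicate 1. Chga, another granule gene of the 10 that rose (limma adjusted p = 0.00596), was also highest there, but its other P14 libraries did not reverse the order of these sums. It was at 19.4 FPKM in P14 replicate 1 and at 13.4, 14.5 and 11.7 in replicates 2 to 4.

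Among 10 genes of serotonin synthesis, storage and clearance 5 were tested, 2 rose and 0 fell, beside 9.72% and 15.0% of all tested genes. Maob, a monoamine oxidase, rose by 3.16 (SE 0.431, limma adjusted p = 0.00265) and Gch1, which makes the cofactor of tryptophan hydroxylase, rose by 1.89 (limma adjusted p = 0.0165); Gch1 lost its call without E17.5 replicate 3 or 4. Slc18a1, the vesicular transporter of enterochromaffin cells, did not pass the filter. It stood at 0.0376 to 0.0546 FPKM there and at 11.9, 0.137, 0.929 and 0.216 in P14 replicates 1 to 4, in the order of Epcam. Slc18a1 and Tph1 thus had their P14 maximum in the same library but differed in the others, where Slc18a1 was above and Tph1 below the fetal libraries.

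**Figure D5:**
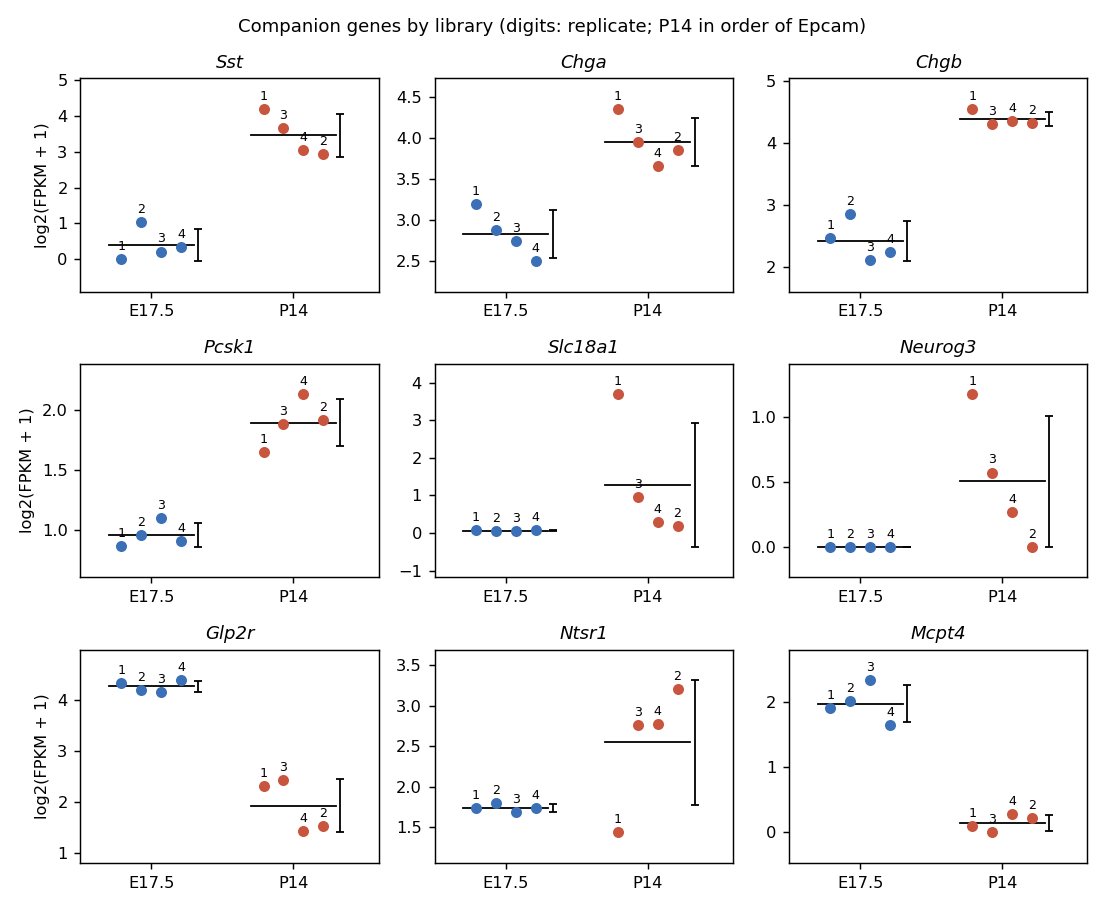
Level of 9 companion genes as log2(FPKM + 1) in 4 E17.5 libraries (blue) and 4 P14 libraries (red, from highest to lowest Epcam), with digits giving the replicate, lines the mean and bars the SD. Slc18a1 and Neurog3 descend with Epcam at P14, Chgb is level there, Glp2r and Mcpt4 are lower at P14 than at E17.5, and Ntsr1 is lowest in P14 replicate 1.

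Receptors for these hormones are also known from muscle, nerve and connective tissue cells. Of 25, 12 were tested, 1 rose and 1 fell, beside 9.72% and 15.0% of all tested genes, so the share of increases was near that of all genes. Glp2r, the receptor of the Gcg product GLP-2, measured 19.0, 17.2, 16.7 and 19.9 FPKM in the fetal replicates and 3.95, 1.86, 4.38 and 1.68 in the P14 ones, replicates 1 to 4. It fell by 2.34 on the log2 scale (SE 0.243, limma adjusted p = 0.00103), the ages did not overlap, and the call held when any single library was left out. Sort1, a sorting receptor that binds neurotensin, rose by 0.61 (limma adjusted p = 0.0141), a call lost without E17.5 replicate 3 (limma adjusted p = 0.0505). Without P14 replicate 1, 7 receptors rose and 1 fell. Over all tested genes the share that rose went from 9.72% to 22.6% with that library left out. One of the 7 was Ntsr1, the main neurotensin receptor, at a log2 difference of 1.18 (limma adjusted p = 0.000154) against 0.81 (limma adjusted p = 0.121) with it.

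Of 15 nutrient and stretch sensors of endocrine cells 4 were tested, 2 rose and 1 fell, beside 9.72% and 15.0% of all tested genes. Gpbar1, a bile acid receptor, was at a log2 difference of 1.31 (limma adjusted p = 0.0346) and Ffar3, a receptor of short-chain fatty acids, at 0.80 (limma adjusted p = 0.0460). Each of these calls was lost when any of 7 single libraries was left out. The mechanical channel gene Piezo2 fell by 0.99 (limma adjusted p = 0.0297), a call lost without any 1 of 5 libraries.

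Without P14 replicate 1 the counts of these lists were larger, as was that of all tested genes (22.6% rose and 26.9% fell). Of the lineage factors 4 fell and 0 rose, and of the other gut peptides 8 rose. Of the granule genes 20 rose, of the serotonin genes 3 rose, and of the sensors 3 rose and 1 fell.

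Likeness across the 8 libraries was described for the 3 genes that passed the filter, over 12692 protein-coding genes. The genes most like Sct were Parp10 (Pearson r = 0.997), Uap1l1 (0.993) and Tmem86b (0.992). Those most like Nts were Dazap2 (0.999), Slc7a7 (0.998) and Gnpda1 (0.997), and those most like Ghrl were Wdr62 (0.987), Il17ra (0.978) and Ppcdc (0.977). Epcam ranked 584 for Sct (0.959), 1350 for Nts (0.918) and 297 for Ghrl (0.913). All these correlations over 8 libraries share the high value of P14 replicate 1 and carry no test.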

How the data were processed

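RNA of small intestinal mesenchyme was sequenced in 8 libraries. The authors deposited 1 FPKM value per gene and library, with gene length and position; per the submitters' processing notes, the build was GRCm39 and the tools included HISAT2, featureCounts, fastp, CASAVA and DESeq2 1.20.0, with no roles stated. Strand use in counting was not stated either, so overlapping genes are uncertain. FPKM times length gave whole multiples of 1 read in 100% of values (tolerance 1e-06), which recovered the reads. Sample titles gave the groups and the replicate numbers. Genes at 1 FPKM or more in at least 4 libraries were tested as log2(FPKM + 1), which understates the change of low genes, with trend and robust moderation in limma 3.58.1, run in R 4.3.3, two-sided, Benjamini-Hochberg adjusted and called under 0.05. The script was tested on simulated data. Exact binomial intervals (scipy 1.17.1) compared reads of 2 libraries at 95% confidence; a count of 0 allows 3 reads.

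The 9 genes and the 18 companion lists (240 of 241 symbols matched) were chosen with earlier results of these data known. The text names all 9 genes, Epcam and, per companion list described, up to 3 called genes with the largest change; likeness names 3 genes each. Kit, Tagln, Neurog3, Slc18a1, Ntsr1, Chga, Pcsk1, Ins1, Ins2, G6pc2, Slc2a2, Olfm4, Lyz1, Fabp6, Slc10a2, Fabp1 and Gata4 fall outside this rule and were added with their values already known. Promoters came from RefSeq (GRCm38.p6), where all 9 matched. Alternatives were another pseudocount, no filter, 2 other scalings, limma without trend, a replicate block, an Epcam covariate, leaving out each library and, added after seeing the data, limma-voom on the recovered reads.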

Additional observations from a re-analysis of the deposited data

Results flagged for a closer look

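In 8 of 20 groups of 4 libraries (the 9 genes and Epcam, each at both ages), 1 library stood apart from the other 3 by more of the group's range than Dixon's 95% critical value allows. The groups share the same libraries and hold FPKM without a log scale, so the count cannot be set against a number due to chance. P14 replicate 1 was the high library in 6 of them: Epcam at 1228 FPKM, Nts at 119, Pyy at 92.4, Sct at 66.3, Neurod1 at 0.942 and Tph1 at 0.663. For Tph1 the next P14 library was at 0.141 FPKM. Cck, Gcg, Gip and Ghrl did not place P14 replicate 1 apart in this way. In the fetal group, E17.5 replicate 3 stood apart for Gcg at 0.0967 FPKM and for Neurod1 at 0.0633 FPKM, where the other 3 libraries were at 0. Any value above 0 is flagged beside 3 values of 0. These values are 2 and 3 reads, within what a count of 0 allows.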

How the results depend on the processing

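The fit gave 0 called genes among Sct, Nts and Ghrl, and 1 with the Epcam covariate, without P14 replicate 1 (range 0 to 1 when leaving out 1 library) or in limma-voom without it. Over all 9 genes without the filter, 0 became 1 with a pseudocount of 0.1 (Gcg, 3.95, adjusted p = 0.0398, where 4.35% of all genes rose), 2 with the covariate, 0 to 1 when leaving out 1 library and 4 in limma-voom without P14 replicate 1. The covariate turned the sign of Sct (-1.06), Nts (-2.16), Ghrl (-0.38), Cck (-0.36), Gcg (-0.79), Pyy (-2.21) and Neurod1 (-0.43). Over all genes 3473 calls became 1735 to 6958 when leaving out 1 library (lowest without E17.5 replicate 3, highest without P14 replicate 1) and 7022 in limma-voom without P14 replicate 1. The 54 calls in the companion lists became 27 to 95, 32 in limma-voom and 85 in limma-voom without P14 replicate 1. With Chga instead of Epcam, 2 of 9 genes followed the order. TPM scaling moved the median of all genes by -0.18 (log2) and gave 899 increases and 2678 decreases against 1365 and 2108. Same-numbered libraries did not deviate together (correlations -0.033, 0.0095, -0.064 and -0.049); the replicate block gave 1744 calls over the filtered genes and 0 among the 3 of the 9 in that fit. Without the filter it called 3 genes up and 11 down of 31574, so 0 of the 9 there says nothing. Of the alternative values for named companion genes and Epcam, 208 kept their call and 64 lost it. The edgeR and DESeq2 fits planned were not run, because the deposited unit is FPKM. The cause of these shifts was not tested. A 0 in a library allows 3 reads, so fetal differences under that level were not detectable.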
